A study of Mus musculus with 15 samples.

Results

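The step from subjective dawn to CT4, the first 4 h of the subjective day, was described from 6 of the 14 ribosome profiling libraries of mouse liver. Ribosome profiling sequences the short mRNA fragments that ribosomes protect from nuclease, so that the reads of an mRNA count the ribosomes found on it. The members were chosen by the circadian time in the sample names, with no measured value: 4 libraries of dawn (2 of CT0 and 2 of CT24) and 2 libraries of CT4. All mice were wild-type C57BL/6N males, 8 to 10 weeks old, held for 2 weeks in a cycle of 12 h light and 12 h dark, and then kept in constant darkness from 24 h before CT0. Mice were killed every 4 h without any agent, and each library came from a piece of frozen liver of 1 mouse, not sorted by cell type. The name of the last pair gives CT24 while another label gives CT00, and the name was used. By the labels the CT0 and CT4 mice were killed on 1 day and the CT24 mice on the next, so that CT4 was also set against the CT0 pair alone.

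In the liver clock, BMAL1 with CLOCK or NPAS2 activates genes through E-box elements, and PER and CRY proteins repress that activity. The REV-ERB receptors (Nr1d1, Nr1d2) repress the Bmal1 gene, and the PAR bZIP factors (DBP, TEF, HLF) and their antagonist NFIL3 act through D-boxes. Mice are active and feed mainly in the dark, so CT4 lies early in the rest phase. The mRNAs of ribosomal proteins and of several translation factors start with a C followed by a run of pyrimidines (a 5′ terminal oligopyrimidine, or TOP, tract), and their translation is known to follow nutrient signalling through mTOR.

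Total counts were 40593197 to 54265729 per dawn library and 58626687 to 60931280 per CT4 library. Levels are given in CPM (counts per 1000000 counts of the library), scaled by the trimmed mean of M values (TMM), in which the median log2 change over all 17299 transcripts tested was -0.000766. Transcripts named Mup (major urinary proteins, abundant secreted proteins with near-identical gene copies) held 34.2% to 45.3% of the counts at dawn and 46.6% to 53.7% at CT4, and scaling by total counts alone moved the median change of all transcripts to -0.319. The defining hepatocyte genes were all present (12 of 12 tested, summed level 57300 to 67750 CPM at dawn and 51440 to 52970 CPM at CT4). The 12 Kupffer cell markers summed to 179 to 221 CPM at dawn and 181 to 192 CPM at CT4, and the 12 endothelial markers to 284 to 323 and 286 to 299 CPM. The CT4 libraries lay outside the dawn range, besides hepatocytes, for stellate cell markers (173 to 212 CPM at dawn, 165 and 169 CPM at CT4), adipocyte markers (3 of 7 tested, 1202 to 1287 against 1539 and 1354 CPM, mostly Car3, which hepatocytes also express) and neutrophil markers (2 of 7 tested, Camp at 0 in all 6 libraries, 0.0322 to 0.493 against 0.852 and 0.929 CPM). Pancreatic acinar markers (18 of 20 tested, Prss1 and Prss3 at 0 in all 6 libraries) summed to 94.4 CPM in CT24 replicate 2 and to 4.47 to 10.9 CPM in the other 5 libraries. The part of these differences in the results was not tested. In unsorted liver tissue, fewer cells of a type and less RNA per cell cannot be told apart, nor can fewer mRNAs and fewer ribosomes per mRNA, since footprints alone were counted.

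Few transcripts were called over these 4 h, and most of those were lower at CT4. With edgeR's quasi-likelihood test (adjusted p under 0.05, Benjamini-Hochberg over all transcripts), 65 of 17299 transcripts were called (0.376%): 3 were higher at CT4 (0.0173%) and 62 lower (0.358%). At an unadjusted p under 0.05 there were 389 higher and 705 lower transcripts. DESeq2's Wald test called 227 transcripts, 36 higher and 191 lower, and edgeR on the 6 libraries alone called 109, 12 higher and 97 lower. With 1 transcript per gene, 53 of 11747 genes were called (0.451%), 3 higher (0.0255%) and 50 lower (0.426%), and Rpl30 was called through another transcript only. The 50 genes fell by 39.7% to 91.6%. Of them, 25 encode cytosolic ribosomal proteins, 5 are other translation factors of a list of 42, and 20 belong to neither. In all 53 called genes the 2 CT4 libraries lay outside the range of the 4 dawn libraries, whereas over all genes tested the CT4 libraries were both above dawn in 8.73% and both below in 9.3%. The count leaned on single libraries: 5 transcripts were called without CT4 replicate 2, 31 without CT4 replicate 1, 30 without CT0 replicate 1, 63 against the CT0 pair alone and 23 against the CT24 pair alone. Nr1d1 and Usp2 were called under all 24 alternatives tried, and no called gene changed direction under any of them, although 50 of the 53 genes were not called without CT4 replicate 2.

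**Figure D1:**
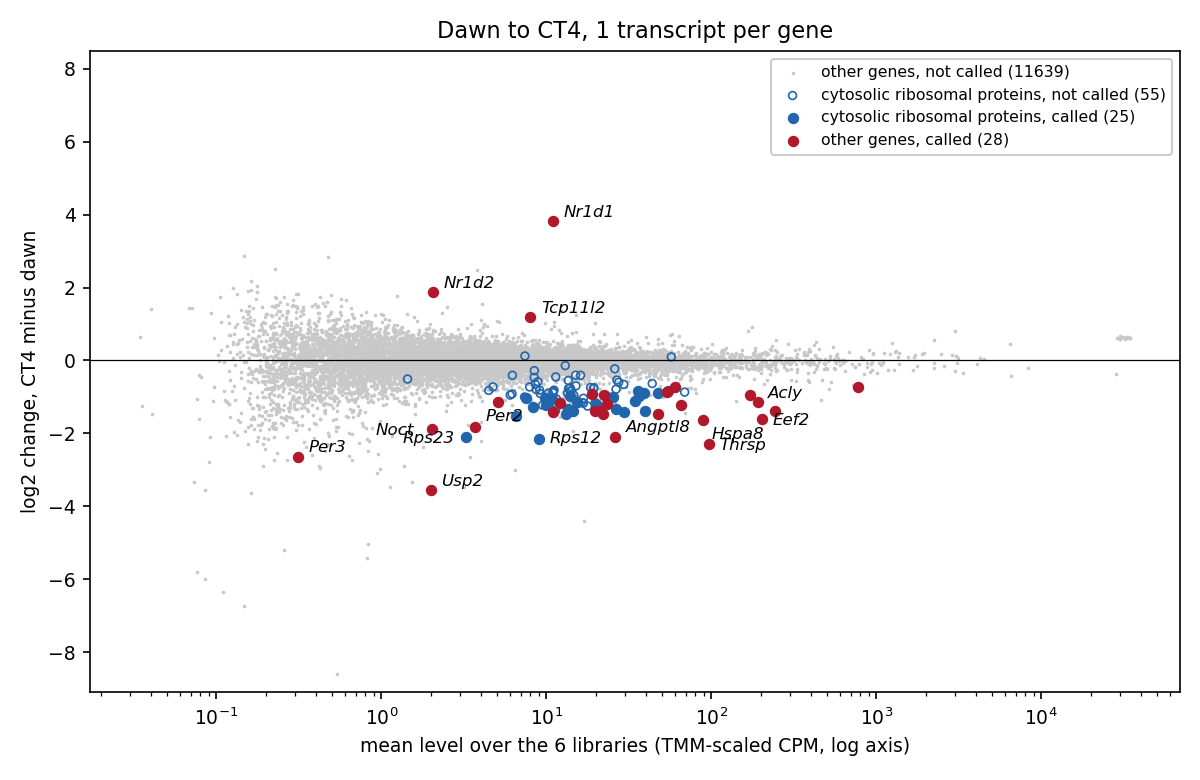
Log2 change from dawn to CT4 (vertical axis, CT4 minus dawn) against the mean level over the 6 libraries (horizontal axis, TMM-scaled CPM, log axis) for 11747 genes, 1 transcript each. Blue marks cytosolic ribosomal proteins, red other called genes and filled points an adjusted p under 0.05. Most ribosomal proteins lie below 0, and Nr1d1 and Usp2 lie farthest from 0 among the called genes.

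The 2 REV-ERB genes showed the largest rises among called genes. Nr1d1, which encodes REV-ERBα, a repressor of Bmal1, was at 1.89 and 1.98 CPM at CT0, 2.59 and 1.69 CPM at CT24, and 38.0 and 19.4 CPM at CT4. Both CT4 libraries were far above all dawn libraries, although they differed from each other by more than the dawn libraries did. The log2 change was 3.82 ± 0.29 (SE, 4 against 2 libraries), or 14.1-fold, with an edgeR adjusted p of 2.57e-06. Nr1d2, which encodes the related REV-ERBβ, was at 0.928 and 1.53 CPM at CT0, 1.35 and 0.546 CPM at CT24, and 4.42 and 3.58 CPM at CT4. The groups did not overlap, and Nr1d2 rose by 1.88 ± 0.28 on the log2 scale (3.68-fold, edgeR adjusted p = 0.0038). Nr1d1 had its highest mean of the day at CT8 (59.7 CPM) and Nr1d2 at CT12 (15.9 CPM), so that CT4 was on the ascending side of both. The only other gene called higher was Tcp11l2, at 3.69 and 8.07 CPM at CT0, 6.26 and 4.42 CPM at CT24, and 10.7 and 14.9 CPM at CT4 (log2 change 1.19 ± 0.25, edgeR adjusted p = 0.0449).

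The promoter windows of 16 of the 19 clock genes were in the RefSeq table (GRCm38.p6, 250 bases before to 50 after the annotated start). The E-box CACGTG occurred on either strand in 5 of the 16, in 11.8% of the 9375 genes tested that had a window and in 7.15% of all 32851 windows, and its variant CACGTT in 3 of the 16, in 6.35% of the genes tested and in 4.68% of all. The windows of 3 genes are shown, since Nr1d1 had the largest called rise, Cry1 holds both kinds of E-box letters and Per3 is the clock gene with D-box letters: the 100 bases before the start of Nr1d1 (chr11:98775378-98775477, minus strand) and of Cry1 (chr10:85185055-85185154, minus strand), with E-box letters in capitals, and a stretch of the Per3 promoter (chr4:151044786-151044885, minus strand), with the D-box letters TTATGTAA in capitals.
Nr1d1: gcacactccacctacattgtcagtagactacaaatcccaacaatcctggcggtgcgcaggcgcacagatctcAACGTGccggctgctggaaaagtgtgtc
Cry1: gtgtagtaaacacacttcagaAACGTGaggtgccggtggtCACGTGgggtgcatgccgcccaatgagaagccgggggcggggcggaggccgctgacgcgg
Per3: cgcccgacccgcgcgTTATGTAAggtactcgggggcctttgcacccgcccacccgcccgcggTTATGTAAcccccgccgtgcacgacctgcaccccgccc
A D-box (TTATGTAA or TTACGTAA, either strand) occurred in 1 of the 16 windows, in 0.917% of the genes tested and in 1.06% of all windows. In this window a match of letters is a description only.

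Of the 10 clock repressors tested, 2 rose (the REV-ERBs), 3 fell and 5 were not called, with a median log2 change of -1.10 against 0.00189 over all genes. Without CT4 replicate 2, Nr1d1 alone of the 10 was called, and the edgeR adjusted p of Nr1d2 was 0.0545, that of Per2 0.286, that of Per3 0.383 and that of Bhlhe40 0.447. Per2, a period protein gene, was at 5.57 and 3.68 CPM at CT0, 5.50 and 4.70 CPM at CT24, and 2.00 and 0.683 CPM at CT4, and fell by 1.84 ± 0.31 on the log2 scale (edgeR adjusted p = 0.0104). Per3 was low throughout, between 0.321 and 0.499 CPM in the dawn libraries and at 0.062 and 0.0759 CPM at CT4, which is 4 reads in each CT4 library. Its log2 change was -2.64 ± 0.51 (edgeR adjusted p = 0.0271). Bhlhe40, which encodes the repressor DEC1, lay between 13.5 and 15.9 CPM at dawn and at 8.45 and 4.67 CPM at CT4 (log2 change -1.18 ± 0.21, edgeR adjusted p = 0.0181). For none of these 3 genes did the CT4 libraries reach the dawn range.

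The other repressors were not called by edgeR as fitted here. Per1 was at 1.01 to 2.90 CPM at dawn and at 0.511 and 0.398 CPM at CT4 (log2 change -1.87 ± 0.46, edgeR adjusted p = 0.105). Cry1, a cryptochrome, was at 8.01 to 12.4 CPM at dawn and at 4.53 and 4.63 CPM at CT4 (log2 change -1.09 ± 0.24, edgeR adjusted p = 0.0599). In both genes the CT4 libraries were below all dawn libraries. DESeq2 and edgeR with total counts called both genes lower, and Cry1 was called in 8 of the 24 alternatives in all and Per1 in 2. Cry2 (log2 change -0.53), Ciart (-1.11) and Bhlhe41 (-0.62) overlapped between the groups, and the value of Bhlhe41 changed sign with CDS reads alone (0.95) or with CT24 alone as dawn (0.28).

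The activators Arntl, Clock, Npas2 and Rora were not called. Arntl, which encodes BMAL1, stayed at 6.69 to 8.89 CPM at dawn and 6.43 and 7.66 CPM at CT4 (log2 change -0.21 ± 0.28). Clock was at 0.16 ± 0.18, Npas2 at 0.28 ± 0.47 and Rora at -0.39 ± 0.19 on the same scale. None of the 4 PAR bZIP and E4BP4 genes was called by edgeR or by DESeq2, and none had an unadjusted edgeR p under 0.05. Dbp was at 0.658 to 0.901 CPM at dawn and at 0.806 and 0.379 CPM at CT4, and reached a mean of 39.5 CPM at CT8. Tef (-0.45 ± 0.22), Hlf (-0.35 ± 0.22) and Nfil3 (0.05 ± 0.28) overlapped between dawn and CT4.

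Usp2 showed the largest fall of any called gene. It encodes a ubiquitin-specific protease whose substrates include clock proteins, and it was at 3.19 and 2.32 CPM at CT0, 3.12 and 2.83 CPM at CT24, and 0.217 and 0.266 CPM at CT4, or 14 reads in each CT4 library. The log2 change was -3.57 ± 0.30 (edgeR adjusted p = 5.40e-06), and all 3 of its transcripts were called. Of the other 14 clock kinases and ubiquitin enzymes none was called, and the median of that list of 15 was 0.16. Noct, which encodes nocturnin, a rhythmic protein related to the CCR4 deadenylases, was at 3.26 and 2.24 CPM at CT0, 2.39 and 2.89 CPM at CT24, and 0.914 and 0.531 CPM at CT4. It fell by 1.88 ± 0.24 on the log2 scale (edgeR adjusted p = 0.000799), while the list of 22 deadenylases and decay factors that holds it had a median of -0.01 and no other call. For Usp2, Noct and Per3, CT4 was the lowest and CT12 the highest time of the day, with Usp2 at 32.5 CPM and Noct at 26.7 CPM there.

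**Figure D2:**
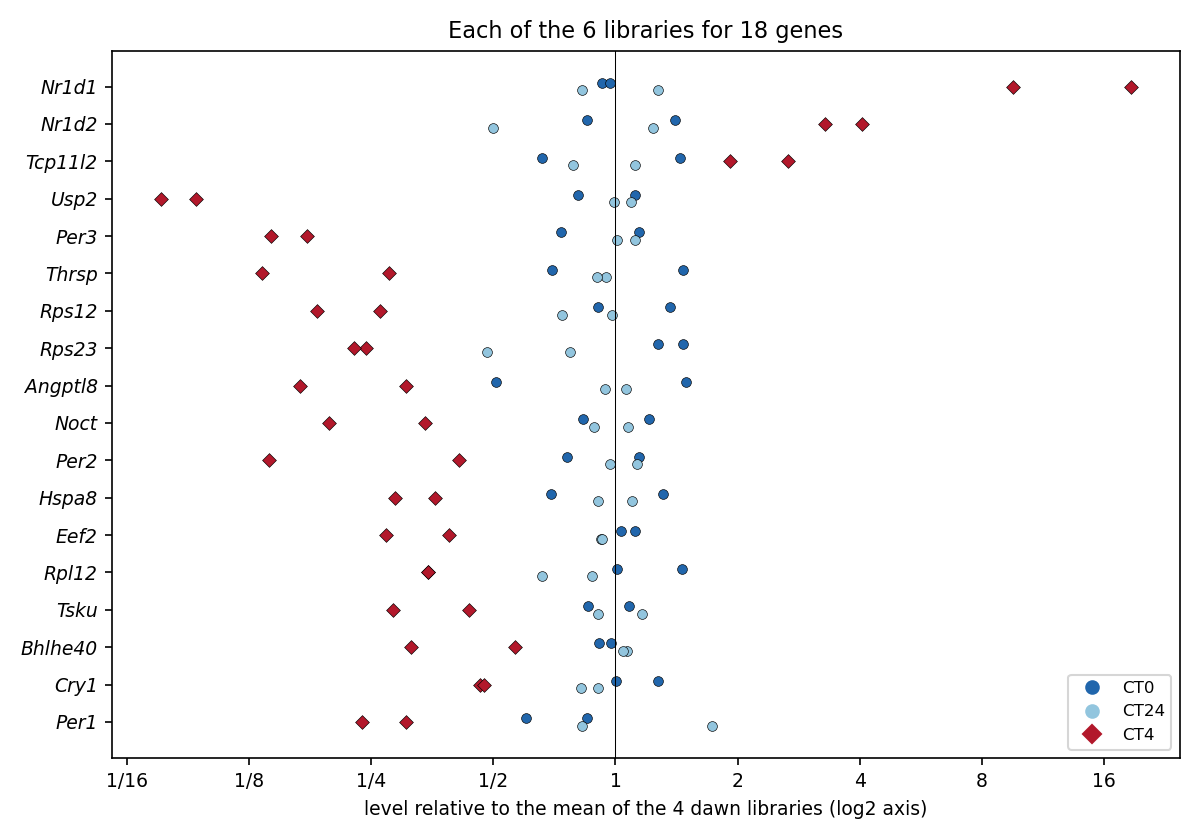
Level in each of the 6 libraries relative to the mean of the 4 dawn libraries (horizontal axis, log2 axis) for 18 genes. Dark blue circles are CT0, light blue circles CT24 and red diamonds CT4; the CT4 diamonds of Nr1d1, Nr1d2 and Tcp11l2 lie right of all circles and those of the other genes left of them.

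**Figure D3:**
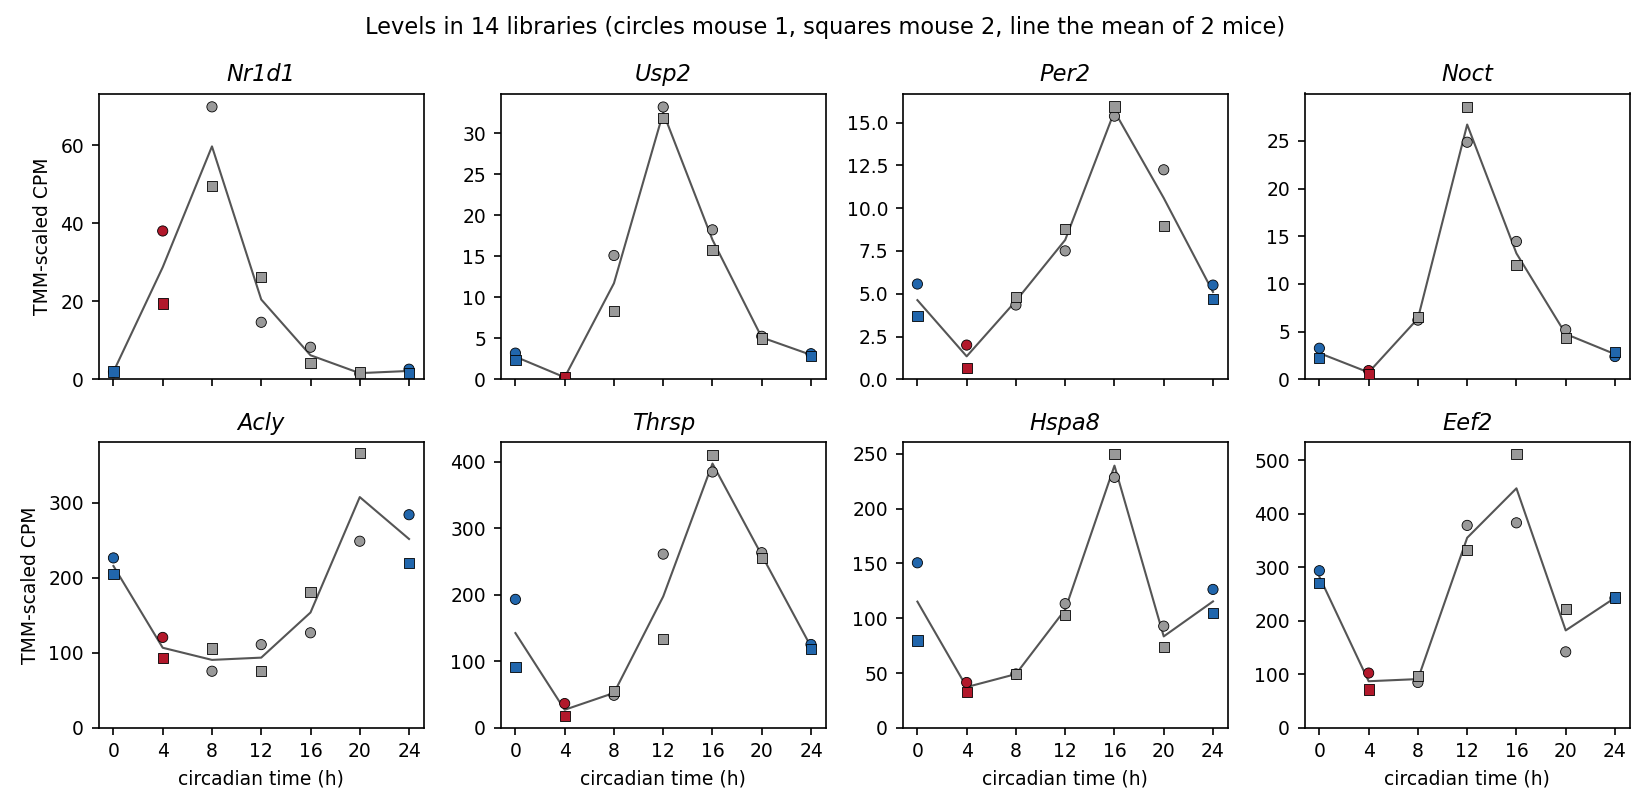
TMM-scaled CPM (vertical axis from 0) of 8 genes in the 14 libraries by circadian time in h (horizontal axis), with circles for mouse 1, squares for mouse 2, blue for dawn, red for CT4, grey for other times and a line through the means of 2 mice. Nr1d1 climbs towards CT8, Acly has its lowest mean at CT8, and the other 6 genes have theirs at CT4.

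The broadest change of the step was a fall of the cytosolic ribosomal proteins. Their summed level was 1842 and 1751 CPM at CT0, 1409 and 1668 CPM at CT24, and 978.7 and 873.5 CPM at CT4. The CT4 libraries were below every dawn library, and the mean sum fell by 44.5%. Of 80 genes tested, 25 fell, none rose and 55 were not called, although 78 of the 80 had a log2 change below 0 (49.7% of all genes did). Their median log2 change was -0.89 against 0.00189 over all genes, and in 86.2% of them both CT4 libraries were below all 4 dawn libraries, against 9.3% of all genes. By DESeq2's Wald test 52 of the 80 fell. The exceptions were Rps27l (0.10) and Rpl7l1 (0.12), which encode proteins related to RPS27 and RPL7, and Rps29 (-0.14), Rpl19 (-0.23) and Rpl21 (-0.28) were among the members closest to 0.

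Proteins of both subunits were among the genes that fell. Rps12 was at 16.8 and 11.1 CPM at CT0, 9.09 and 12.1 CPM at CT24, and 3.24 and 2.26 CPM at CT4 (log2 change -2.15 ± 0.30, edgeR adjusted p = 0.00206). In the large subunit, Rpl12 fell by 1.54 ± 0.29 and the stalk protein gene Rplp0 by 1.45 ± 0.22 on the log2 scale (edgeR adjusted p = 0.0271 and 0.00477). Rps23 had the second largest fall of the list (-2.09 ± 0.44), but its CT24 libraries (2.1 and 3.36 CPM) were well below its CT0 libraries (5.55 and 6.39 CPM), and its edgeR adjusted p was 0.0477. Rack1, a scaffold protein on the small subunit, was at 73.9 to 89.9 CPM at dawn and at 36.5 and 33.0 CPM at CT4 (log2 change -1.21 ± 0.16, edgeR adjusted p = 0.00123). Ribosomal protein genes have many processed copies in the genome. Per the methods only reads with a single place in the genome entered the density profiles, but the separate genes Mup11 and Mup18 both averaged 29400 CPM at dawn, and whether the deposited counts leave out shared reads is not given in the sources used here.

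The median of the list was -0.99 against the CT0 pair alone, from the same day, and -0.80 against the CT24 pair alone, with 29 and 3 of the 80 genes called. Without CT4 replicate 2 the median was -0.80 and edgeR called 0 of the 80, with 58 at an unadjusted p under 0.05; without CT4 replicate 1, CT0 replicate 1 or CT0 replicate 2 it called 10, 7 and 16.

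Translation factors fell in part. Of 42 elongation and initiation factors and related genes, 5 fell (9 by DESeq2), none rose and 37 were not called (median log2 change -0.09). Without CT4 replicate 2 edgeR called 0 of them (11 at an unadjusted p under 0.05), with the smallest adjusted p of the 5 at 0.0877 for Eef2. Eef2, the factor that moves the ribosome along the mRNA, was at 294 and 271 CPM at CT0, 242 and 244 CPM at CT24, and 102 and 71.8 CPM at CT4, and fell by 1.59 ± 0.20 on the log2 scale (edgeR adjusted p = 0.000763). Eef1a1, which brings aminoacyl-tRNA to the ribosome, was at 282 and 317 CPM at CT0, 285 and 344 CPM at CT24, and 145 and 88.7 CPM at CT4 (log2 change -1.40 ± 0.24, edgeR adjusted p = 0.0156). Its exchange factor subunit Eef1b2 fell by the same 1.40 ± 0.21 (edgeR adjusted p = 0.00438). The cytoplasmic poly(A)-binding protein gene Pabpc1 (-0.94 ± 0.19) and Eif3f (-0.91 ± 0.19), a subunit of initiation factor eIF3, fell less. Many initiation factor genes lay near 0, such as Eif4e (-0.08), Eif4g1 (0.03) and Eif4a1 (-0.01), and Eif4a2 (-0.88) and Eif4b (-0.76) missed the threshold.

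The start sites of these genes were read from the RefSeq windows. A pyrimidine run was counted where a C and at least 5 more C or T followed each other on the transcript's strand, within 10 bases before to 30 after the annotated start. It was present in 14 of the 20 called ribosomal protein genes with a window, in 4 of 5 of Eef2, Eef1a1, Eef1b2, Eif3f and Rack1, in 3000 of the 9375 genes tested with a window and in 27.6% of all 32851 windows. Of the 60 ribosomal protein genes tested that had a window 66.7% held a run, against 9 of the 36 cholesterol and fatty acid synthesis genes. The run was not confined to ribosomal protein and translation factor genes. Of the other called genes, 7 of the 17 with a window held one (Nr1d1, Noct, Odc1, Insig1, Angptl8, Acacb and Serpina1c). The 8 largest falls among ribosomal protein and translation factor genes with a window are shown, with the run in capitals. Usp2 and Per3 follow as the largest falls outside these groups, and neither held a run. Each stretch reaches from 5 bases before to 25 after the annotated start.
Rps12: cggccaccgccggCCTTTTCCCCTgccgcc
Rps23: gggcggggCTTCCCgcaatgccttgtgggt
Eef2: cgggcgttgacgtcagcggtCTCTTCCgcc
Rpl12: gatccgtCTTTTCggctttcggctcggagg
Rplp0: ttcgaggaccgcctggttctcctataaaag
Rpl27a: gCTCCTCCCTTTTCCCTTTCTgccaccgcc
Eef1a1: CCCTCTTCCCgagggtgggggagaacggta
Eef1b2: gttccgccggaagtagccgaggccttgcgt
Usp2: ctgacgtcgcaaagctggaagctcggcggg
Per3: gcctcgagactggactgcccgcgggtgggc
In order they lie at chr10:23787185-23787214 (minus strand), chr13:90923117-90923146, chr10:81176626-81176655, chr2:32961707-32961736, chr5:115559462-115559491, chr7:109519190-109519219 (plus strand), chr9:78481700-78481729 (minus), chr1:63176826-63176855, chr9:44084915-44084944 (plus) and chr4:151044641-151044670 (minus). Rplp0 and Eef1b2 fell like the others and had no run in this window. The place of the run differs between the genes, and an annotated start need not be the start used in liver.

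Other gene groups of protein production and turnover held no called gene. None of 78 mitochondrial ribosomal proteins was called by edgeR or DESeq2 (3 had an unadjusted edgeR p under 0.05), and their median was 0.07. None of 36 proteasome subunits was called by either tool (1 at an unadjusted p under 0.05), with a median of 0.04, nor any of 74 respiratory chain subunits (1 at an unadjusted p under 0.05), with a median of -0.04. Ribosome biogenesis factors lay between: 41 of 50 were below 0 with a median of -0.26, edgeR called none (9 at an unadjusted p under 0.05) and DESeq2 called 1 lower. Aminoacyl-tRNA synthetases had a median of -0.06 and no call by either tool (1 of 20 at an unadjusted p under 0.05). The called genes were also short, with a median coding length of 782 nt in the 50 that fell against 1395 nt over all genes, but the 25 that are not ribosomal proteins had 1293 nt.

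**Figure D4:**
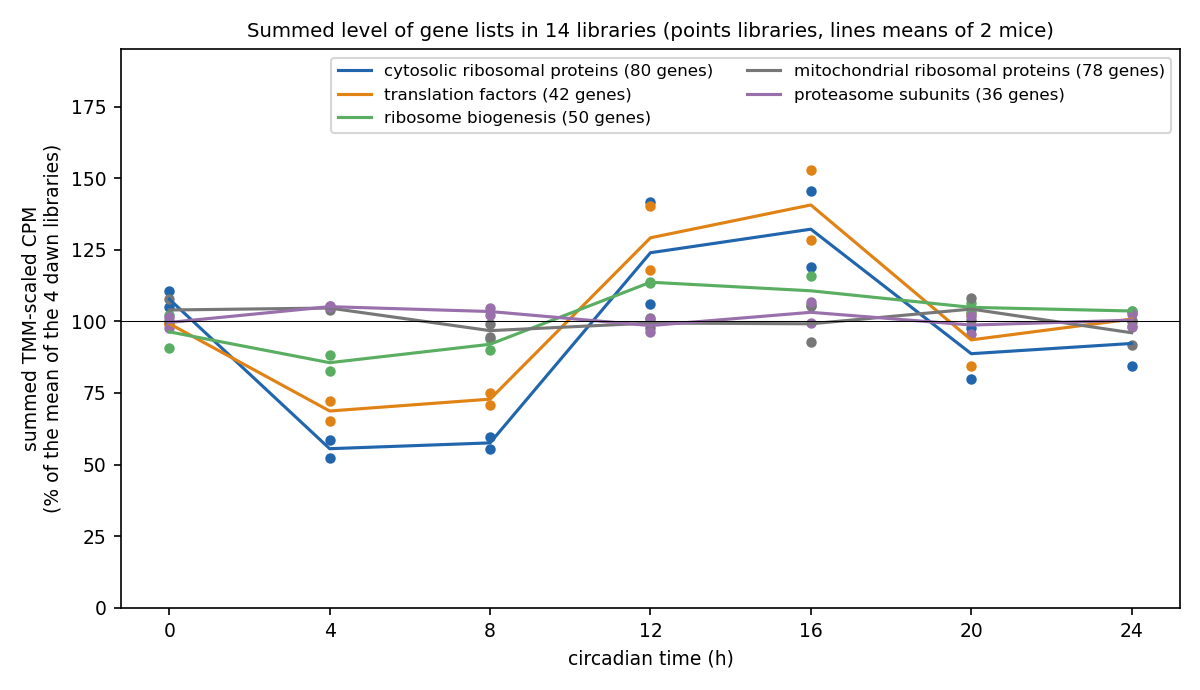
Summed level of 5 gene lists in the 14 libraries (vertical axis from 0, percent of the mean of the 4 dawn libraries; points are libraries and lines join means of 2 mice) by circadian time in h (horizontal axis). Cytosolic ribosomal proteins are at about 56% of dawn at CT4 and stay low at CT8, and mitochondrial ribosomal proteins and proteasome subunits stay near 100% throughout.

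Over the day, 42 of the 50 genes that fell had their lowest mean at CT4 and 7 at CT8, and 34 had their highest mean at CT16. Since these genes were picked for low values at CT4, their lowest time is a description and not a test. The summed ribosomal protein level averaged 959.9 CPM at CT8, 2066 at CT12, 2204 at CT16 and 1479 at CT20.

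Some genes of the lipid synthesis lists fell. In the fatty acid list 3 of 21 genes fell (7 by DESeq2), or 14.3% against 0.426% of all genes. None rose, and 19 were below 0, with a median of -0.52. Thrsp, which encodes Spot 14, a lipogenic protein induced by thyroid hormone, was at 193 and 91.9 CPM at CT0, 125 and 119 CPM at CT24, and 36.6 and 17.8 CPM at CT4. The groups were well apart, and Thrsp fell by 2.28 ± 0.32 on the log2 scale (edgeR adjusted p = 0.00206). Acly, which makes cytosolic acetyl-CoA from citrate, was at 205 to 284 CPM at dawn and at 120 and 93.0 CPM at CT4 (log2 change -1.13 ± 0.22, edgeR adjusted p = 0.031). Acacb, the acetyl-CoA carboxylase at mitochondria, was at 59.8 to 68.5 CPM at dawn and at 36.9 and 33.0 CPM at CT4 (log2 change -0.87 ± 0.16, edgeR adjusted p = 0.0248). Fatty acid synthase, Fasn, averaged 562 CPM at dawn and 267 CPM at CT4 and missed the threshold (log2 change -1.07, edgeR adjusted p = 0.116), and the desaturase gene Scd1 was close to 0 (-0.15).

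In the cholesterol list 3 of 27 genes fell (8 by DESeq2), or 11.1% against 0.426% of all genes. None rose, and 25 were below 0, with a median of -0.53. In 74.1% of the genes both CT4 libraries were below dawn, against 9.3% of all genes. Pmvk, phosphomevalonate kinase, was at 16.6 and 15.7 CPM at CT0, 12.9 and 10.1 CPM at CT24, and 4.70 and 5.61 CPM at CT4 (log2 change -1.42 ± 0.24, edgeR adjusted p = 0.0104). Insig1, which holds SREBP factors in the endoplasmic reticulum, was at 65.0 to 72.4 CPM at dawn and at 44.2 and 38.8 CPM at CT4 (log2 change -0.74 ± 0.15, edgeR adjusted p = 0.0326). The groups did not overlap for either gene. Against the CT24 pair alone, edgeR called 0 genes of the cholesterol list (14 at an unadjusted p under 0.05) and 2 of the fatty acid list, while their medians were -0.60 and -0.55. Without CT4 replicate 1 it called 0 cholesterol genes (10 at an unadjusted p under 0.05) and 2 fatty acid genes, without CT4 replicate 2 it called 0 in both lists (14 and 9 at an unadjusted p under 0.05), and without CT0 replicate 1 it called 2 and 1.

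The lists of lipid use and storage held no called gene. None of 32 genes of fatty acid oxidation and ketogenesis was called (median -0.10, 5 at an unadjusted p under 0.05, and DESeq2 called 1 higher and 1 lower). None of 21 triglyceride and lipid droplet genes was called (median -0.05, 3 at an unadjusted p under 0.05, and DESeq2 called 1 lower). Among 19 secreted hormones of the liver, 2 fell and their median was -0.10. Angptl8, a secreted inhibitor of lipoprotein lipase activity, was at 52.2 and 17.8 CPM at CT0, 32.9 and 37.2 CPM at CT24, and 5.84 and 10.7 CPM at CT4 (log2 change -2.09 ± 0.35, edgeR adjusted p = 0.0104). The groups did not overlap, although the lower CT0 mouse was closer to the higher CT4 mouse than to the other CT0 mouse. Tsku, a secreted leucine-rich proteoglycan, was at 51.6 to 70.5 CPM at dawn and at 26.3 and 17.1 CPM at CT4 (log2 change -1.48 ± 0.30, edgeR adjusted p = 0.0326), and all 4 of its transcripts were called.

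Single genes of other pathways fell as well. Hspa8, the constitutive HSP70 chaperone HSC70, was at 151 and 79.7 CPM at CT0, 126 and 104 CPM at CT24, and 41.4 and 33.0 CPM at CT4 (log2 change -1.63 ± 0.21, edgeR adjusted p = 0.000799). edgeR called no other of 26 heat shock chaperones and DESeq2 called 3 lower, in a list with 22 members below 0 and a median of -0.31, in which Hsp90ab1 (-0.54, edgeR adjusted p = 0.36) and the stress-inducible Hspa1a (-0.24) and Hspa1b (-0.44) were not called. Odc1, ornithine decarboxylase, the rate-limiting enzyme of polyamine synthesis, was at 4.81 to 8.52 CPM at dawn and at 2.63 and 3.00 CPM at CT4 (log2 change -1.15 ± 0.24, edgeR adjusted p = 0.0454). Ahcy, which hydrolyses S-adenosylhomocysteine, was at 186 to 218 CPM at dawn and at 124 and 89.2 CPM at CT4 (log2 change -0.94 ± 0.17, edgeR adjusted p = 0.0181). In its list of 40 urea cycle and amino acid enzymes edgeR called no other gene, and DESeq2 called 6 lower. Rsrp1, an arginine- and serine-rich protein gene, fell by 1.20 ± 0.21 on the log2 scale (edgeR adjusted p = 0.0181), while the cold-inducible Cirbp averaged higher at CT4 (1.46, edgeR adjusted p = 0.163) and was not called. Serpina1c, an α1-antitrypsin gene with near-identical neighbours and one of the hepatocyte markers above, was at 739 to 974 CPM at dawn and at 592 and 491 CPM at CT4 (log2 change -0.73 ± 0.16, edgeR adjusted p = 0.0496).

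**Figure D5:**
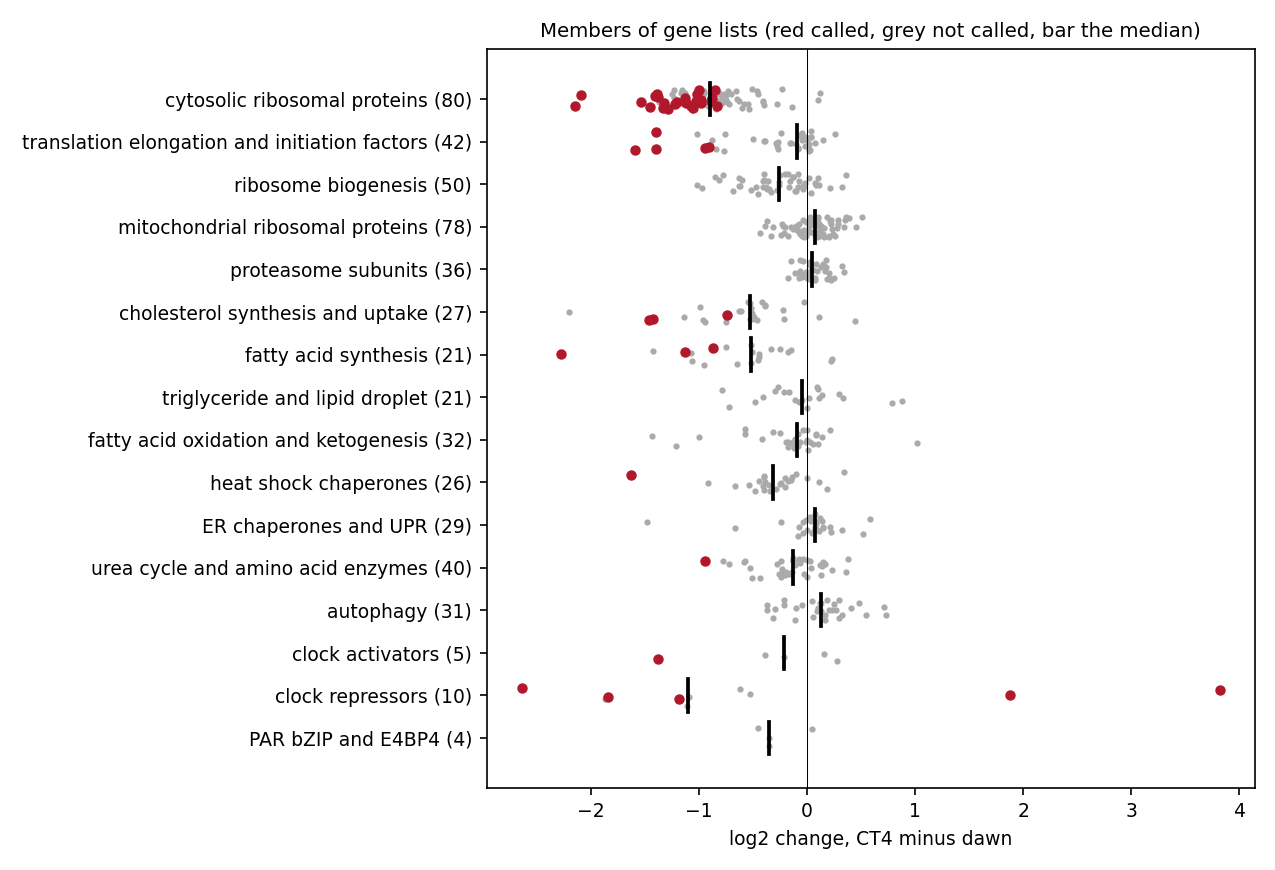
Log2 change from dawn to CT4 (horizontal axis) of the members of 16 gene lists, with the number tested in brackets. Red points were called, grey points were not, and the bar is the median; the bar of the cytosolic ribosomal proteins is at -0.89 and those of the 2 lipid synthesis lists at -0.53 and -0.52.

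In all, 13 of 38 gene lists held a called gene. Among the others, 31 autophagy genes had a median of 0.13. In 8 of them (25.8%) both CT4 libraries were above dawn, against 8.73% of all genes. Of the 31, edgeR called none (5 at an unadjusted p under 0.05) and DESeq2 called 1 higher. Gabarapl1, an ATG8 family gene, averaged 46.4 CPM at dawn and 76.0 CPM at CT4 (log2 change 0.71, edgeR adjusted p = 0.155). None of 29 endoplasmic reticulum chaperones and unfolded protein response genes was called by either tool (3 at an unadjusted p under 0.05), with a median of 0.07. None of 22 bile acid genes was called by either tool (5 at an unadjusted p under 0.05), and Cyp7a1, the rate-limiting enzyme of bile acid synthesis, was at 20.9 to 44.1 CPM at dawn and at 17.4 and 11.7 CPM at CT4 (log2 change -1.14, edgeR adjusted p = 0.184). The 16 Mup genes had a median of 0.61 and no call by either tool (11 at an unadjusted p under 0.05), and their dawn and CT4 libraries overlapped in 13 of the 16. In 18.8% of them both CT4 libraries were above dawn, against 8.73% of all genes.

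The dawn group joins mice a day apart, so CT0 and CT24 were compared. In a fit with 7 times edgeR called 0 of 17299 transcripts (0%), with 873 at an unadjusted p under 0.05, and DESeq2's Wald test called 2. With 2 against 2 libraries, fewer than for dawn to CT4, a count of 0 does not show that the pairs agree. The ribosomal protein list had a median of -0.20 from CT0 to CT24, against -0.89 from dawn to CT4, and the 2 lipid lists were at -0.02 each. Reads in 5′UTRs were compared in 7640 transcripts, as 5′UTR counts over CDS counts on the log2 scale. limma called 0 of them between dawn and CT4 (0%), with 176 at an unadjusted p under 0.05, and the median change of the ratio (CT4 minus dawn) was 0.213 on the log2 scale. The 5′UTR share of all counts in a library was 6.56% to 8.02% at dawn and 6.54% and 7.28% at CT4, and these ranges overlap. The 3′UTR share was 0.328% to 0.394% at dawn and 0.283% and 0.289% at CT4, without overlap, and the cause was not tested. In simulated data of this size the ratio test found 19 of 100 changes of 2 on the log2 scale and 85 of 100 changes of 5, so smaller changes of the ratio were not detectable in most transcripts.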

How the data were processed

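Ribosome-protected fragments of mouse liver were sequenced from 14 libraries, and 6 of them enter the comparison. Per the study's methods, adapter trimming and removal of rRNA reads with Bowtie (the submitters' processing notes name Bowtie2 2.1.0.0 and SAMtools 0.1.19.0) were followed by mapping to mm10, and footprints with lengths from 26 to 32 nt were placed by their A site. The deposited values are raw counts for each of 28167 RefSeq transcripts, split into 5′UTR, coding and 3′UTR reads, and 27840 of the transcripts matched a symbol. The methods restrict the density profiles to exact matches at a single genomic place, while the rule for reads that fit several transcripts of a gene is not given in the sources used here.

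Counts of the 3 regions were added, and 17299 transcripts that averaged 10 or more counts over 14 libraries were fitted with edgeR 4.0.16 (R 4.3.3) in 6 groups, with dawn as 1 group, TMM scaling and a quasi-likelihood F test with 8 residual degrees of freedom. SE is the log2 change divided by the root of F. DESeq2 1.42.0 and limma 3.58.1 served as stated. In simulated counts the edgeR fit found 49 of 50 falls of 2 and 36 of 50 falls of 1 on the log2 scale, 48 of 50 rises of 2 and 30 of 50 rises of 1, with 12 other calls. The changed transcripts were drawn from those above the lower quartile of mean level, with 1 flat mean at all other times. The recovery therefore does not cover transcripts of lower level. Named genes are the called genes with the 12 largest rises or falls (a mean of at least 50 counts, no overlap), all clock genes and up to 4 genes of each list with the smallest p, and a few list members were added after their values were seen. The gene lists, the comparison and the tests were chosen with earlier results of these data known. A gene is represented by its most counted transcript. Each library is 1 mouse, and replicate numbers were not used to pair the mice, except in the replicate block tried. Alternatives covered scaling, count minimum, region, test, groups in the fit, blocks, and leaving out each of the 6 libraries, CT16 replicate 2 or CT20 replicate 2. A few genes counted in the totals are not reported here by name. The precision of the CT4 values rests on 2 mice. A further sequencing run of CT16 replicate 2 was not analysed here.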

Additional observations from a re-analysis of the deposited data

Results flagged for a closer look

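In groups of 4 dawn libraries, 3 of 104 values tested held a library far from the other 3 by Dixon's ratio, the gap to the nearest library over the whole range, on the log2 scale (with 0.1 CPM added for single genes), and chance flags about 1 in 20 such groups. Rps18 was at 20.5, 18.8 and 19.5 CPM in 3 dawn libraries and at 8.91 CPM in CT24 replicate 1, a ratio of 0.893. Rps3 was at 48.8, 50.2 and 49.0 CPM and at 38.0 CPM in CT24 replicate 1, a ratio of 0.897. The summed level of the ribosome biogenesis factors was 401.2, 407.5 and 406.8 CPM and 355.9 CPM in CT0 replicate 2, a ratio of 0.885.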

How the results depend on the processing

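The number of transcripts called from dawn to CT4 was 65 (3 higher, 62 lower). It was 109 (12 and 97) with the 6 libraries alone, 227 (36 and 191) with DESeq2's Wald test and 23 (21 lower) with the CT24 pair alone as dawn, and it ranged from 5 to 68 (1 to 5 higher, 4 to 64 lower) when 1 of the 6 libraries was left out. It was 75 with CT16 replicate 2 left out of the fit. The higher transcripts numbered 5 with a mean of at least 1 count, 5 with 7 groups and 7 with the code prefix as a block. Same-numbered mice did not deviate together (correlations 0.0115, 0.0175, -0.0366 and 0.0536). The deviations of 2 CT4 libraries from their mean mirror each other, so these values are not separate checks and cannot exclude a pairing. With the replicate block 5 transcripts were higher, 74 were called in all and 61 of the 65 were among them. Between CT0 and CT24 the count was 6 with the replicate block, 2 with DESeq2 and 0 to 2 with 1 library left out. Signs turned in genes that were not called: Bhlhe41 (0.95 with CDS reads alone, 0.28 with CT24 alone as dawn), Clock (-0.15), Npas2 (-0.02) and Nfil3 (-0.31) with total counts, Nfil3 also with CT0 alone (-0.01) and without CT24 replicate 2 (-0.00) or CT4 replicate 2 (-0.24), and Dbp without CT4 replicate 2 (0.07). Without CT4 replicate 1 these 2 genes were at 0.29 and -1.01. The cause was not tested. CT20 replicate 2, in which pancreatic acinar markers summed to 4923 CPM, enters the dispersion only, and 67 transcripts were called without it (chosen after seeing the data, as were DESeq2 for CT0 against CT24 and TMM factors without ribosomal protein and elongation factor transcripts, with 65 calls). Genes as low as Per3 and Ciart rest on few reads at CT4.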
